A study of Homo sapiens with 9 samples.

Results

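The 6 extracellular matrix genes ADAMTS1, VCAN, FBN1, TGFBI, LOX and TNC were followed through a knockdown of TAF1D in Caki-1 cells. They were taken by gene symbol and cover 10 transcript rows of the 20909 rows, and 6 of the 6819 genes, in the deposited table. They were selected on their measured differences in these comparisons, SH1 or SH3 against control and SH3 against SH1, so the differences below are a description and no test of them is offered. Caki-1 is a human line from a clear cell renal carcinoma, and TAF1D encodes a subunit of the factor that recruits RNA polymerase I. Total RNA of this line was sequenced in 9 libraries: 3 of SH1 and 3 of SH3, both with the genotype TAF1D knockdown by short hairpin RNA, and 3 of the control with the genotype WT. What the names SH1 and SH3 mean is not given, and nothing states whether libraries of a group came from separate cultures. The p-values set differences against the spread between these samples, which may be technical, so they may not extend to new cultures.

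The extracellular matrix is the network of proteins and sugar chains that cells secrete around themselves. Fibrillin microfibrils and collagen fibres give it strength, lysyl oxidase cross-links collagen and elastin, and large proteoglycans such as versican hold water and keep the network loose. Secreted metalloproteinases of the ADAMTS family cut versican and related proteoglycans, and matricellular proteins such as tenascin-C and TGFBI alter how cells attach. In renal carcinoma, lysyl oxidase is best known as a gene induced by hypoxia-inducible factors.

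The deposited table is a selection. FPKM (fragments scaled by transcript length and library size) differed at least 2-fold between control 1 and SH1 1, allowing 1% for rounding, in 20906 of 20909 rows (99.986%). All 6 genes therefore differ between those 2 libraries by construction, and values without them are called those of the other 7 libraries. TAF1D itself was not analysed here, so its knockdown could not be checked. Estimated counts of the listed rows added up to 1358215 to 1596467 per library, which is not the libraries' depth. The TPM of these rows added up to 4.202% to 5.176% of all TPM in a library. Of 9 clear cell carcinoma markers 3 were listed (PAX8, CD70 and VEGFA), with a summed level of 55.85 to 66.58 FPKM in SH1, 30.18 to 38.85 FPKM in SH3 and 18.15 to 25.28 FPKM in control. Of 9 fibroblast markers PDGFRB was the 1 listed, at 0.21 to 0.34 FPKM in SH1, 0.28 to 0.31 FPKM in SH3 and 0.16 to 0.33 FPKM in control, and 0 of 6 tubule, 0 of 5 endothelial and 0 of 5 blood cell markers were listed. A marker outside the selection may be expressed at equal levels, so the listing does not show which cell types are present. The part of the carcinoma markers' difference in the results below was not tested.

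ADAMTS1, VCAN, FBN1 and TGFBI were lower in both knockdown groups than in control. The listed TNC rows, summed, were higher in both. LOX was lower in SH1 and higher in SH3 than in control. ADAMTS1, FBN1, TGFBI and LOX were lower in SH1 than in SH3 in every library, whereas VCAN had nearly the same level in both.

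**Figure D1:**
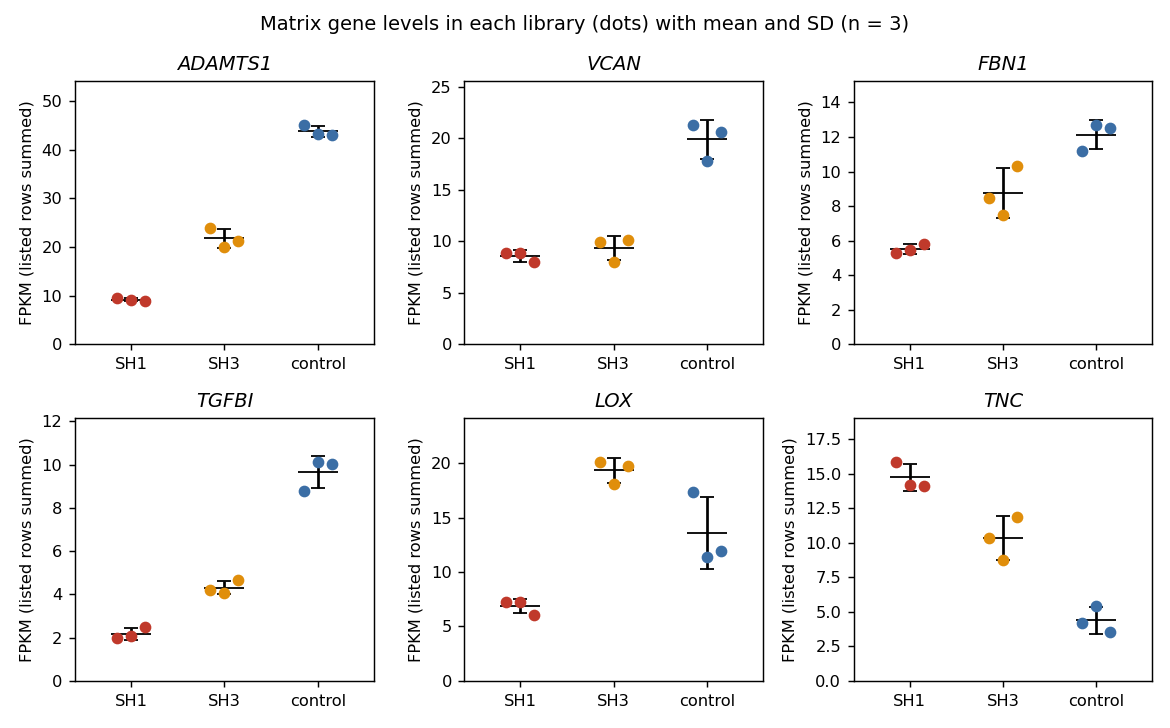
Level of each gene in FPKM, with the listed rows of a gene summed, in the 3 libraries of SH1, of SH3 and of control; dots are libraries, and the bar and whiskers are mean and SD. ADAMTS1, VCAN, FBN1 and TGFBI lie below control in both knockdown groups, TNC lies above it, and LOX averages 6.85 FPKM in SH1 and 19.3 FPKM in SH3 on either side of 13.6 FPKM in control.

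ADAMTS1 (NM_006988, gene 9510) encodes a secreted metalloproteinase that cleaves versican and aggrecan. Its level was 9.43, 9.13 and 8.94 FPKM in SH1 and 23.89, 20.07 and 21.29 FPKM in SH3, against 45.11, 43.3 and 42.99 FPKM in control. The 3 groups were fully apart, and the SH3 libraries lay between the SH1 and the control libraries. Mean levels were 9.17 ± 0.247 FPKM in SH1, 21.8 ± 1.95 FPKM in SH3 and 43.8 ± 1.15 FPKM in control (SD, n = 3 each), so that SH1 had 20.9% and SH3 49.7% of the control level. The estimated counts behind these levels were 918 to 941 in SH1, 2046 to 2421 in SH3 and 4245 to 4525 in control. In the edgeR fit of single rows, the log2 fold change was -2.37 ± 0.15 (SE) for SH1 against control, -1.05 ± 0.15 for SH3 against control and 1.32 ± 0.15 for SH3 against SH1. The values in the other 7 libraries were -2.35, -1.03 and 1.32. With the listed rows of each of the 6 genes summed, ADAMTS1 had the highest mean level over all libraries, 24.9 FPKM.

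VCAN encodes versican, a large chondroitin sulfate proteoglycan and a substrate of ADAMTS1. The 1 listed row, NM_001164097 (gene 1462), is a splice form that skips exon 7 (2961 bases) and keeps exon 8 (5262 bases) of the full transcript NM_004385. These long exons encode the glycosaminoglycan attachment regions of versican, and the form corresponds to the V1 type. The estimated count divided by FPKM, which tracks the transcript length used for FPKM, was 0.807 of that of FBN1. The annotated length of this form (9455 bases) is 0.804 of that of the FBN1 transcript (11756 bases). This ratio does not show which form the reads came from. The junction that marks the form is shown because it defines the versican message that the row is named for. It was taken from the annotation, and reads across it were not examined. It joins chr5:83512367-83512396 to chr5:83537007-83537036 on the plus strand (GRCh38, GENCODE), in lower case before the junction and in capitals after it.
VCAN junction: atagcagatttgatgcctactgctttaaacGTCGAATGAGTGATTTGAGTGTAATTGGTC

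The listed versican row had 8.86, 8.89 and 7.94 FPKM in SH1 and 9.87, 7.99 and 10.15 FPKM in SH3. Control had 21.28, 17.74 and 20.59 FPKM. Other forms of versican are not listed, so total versican RNA was not measured. Every knockdown library lay below every control library, while the SH1 and SH3 libraries overlapped. Means were 8.56 ± 0.54 FPKM in SH1, 9.34 ± 1.17 FPKM in SH3 and 19.9 ± 1.88 FPKM in control (SD, n = 3 each), which is 43.1% of control in SH1 and 47.0% in SH3. The row's log2 fold change was -1.32 ± 0.17 for SH1 against control, -1.13 ± 0.17 for SH3 against control and 0.19 ± 0.17 for SH3 against SH1. In the other 7 libraries the values were -1.28, -1.08 and 0.20. Both genes had the order SH1, SH3, control by their means, with SH3 at 237% of the SH1 level for ADAMTS1 and at 109% for versican.

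FBN1 encodes fibrillin-1, the backbone of microfibrils, which also bind latent TGF-beta complexes. Its level (NM_000138, gene 2200) was 5.26, 5.44 and 5.83 FPKM in SH1 and 8.49, 7.49 and 10.32 FPKM in SH3, against 11.18, 12.7 and 12.53 FPKM in control. The groups did not overlap, with SH3 in between, although its highest library (10.32) came close to the lowest control library (11.18). Means were 5.51 ± 0.291 FPKM in SH1, 8.77 ± 1.44 FPKM in SH3 and 12.1 ± 0.833 FPKM in control (SD, n = 3 each). The row's log2 fold change was -1.25 ± 0.18 for SH1 against control, -0.51 ± 0.18 for SH3 against control and 0.74 ± 0.18 for SH3 against SH1.

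TGFBI encodes a secreted adhesion protein named for its induction by TGF-beta, which binds collagens and integrins. Its level (NM_000358, gene 7045) was 1.97, 2.07 and 2.47 FPKM in SH1 and 4.21, 4.08 and 4.66 FPKM in SH3, against 8.8, 10.14 and 10.02 FPKM in control. The 3 groups were apart in the same order as for ADAMTS1. Means were 2.17 ± 0.265 FPKM in SH1, 4.32 ± 0.304 FPKM in SH3 and 9.65 ± 0.741 FPKM in control (SD, n = 3 each), or 22.5% of control in SH1 and 44.7% in SH3, shares near those of ADAMTS1. The estimated counts were the lowest of the 4 genes that were lower in both groups, 102 to 132 in SH1, 216 to 249 in SH3 and 458 to 539 in control. The row's log2 fold change was -2.26 ± 0.48 for SH1 against control, -1.20 ± 0.46 for SH3 against control and 1.06 ± 0.46 for SH3 against SH1. The SE of these values was the largest among the main rows of the 6 genes.

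LOX encodes lysyl oxidase, the copper enzyme that cross-links collagen and elastin. Its main row (NM_002317, gene 4015) had 6.87, 6.44 and 5.33 FPKM in SH1 and 18.5, 17.27 and 18.47 FPKM in SH3, against 16.59, 11.08 and 11.14 FPKM in control. All SH1 libraries lay below and all SH3 libraries above the control libraries, and control 1 was well above controls 2 and 3. Means were 6.21 ± 0.795 FPKM in SH1, 18.1 ± 0.702 FPKM in SH3 and 12.9 ± 3.16 FPKM in control (SD, n = 3 each), which is 48.0% of control in SH1 and 140% in SH3. The row's log2 fold change was -1.17 ± 0.25 for SH1 against control, 0.44 ± 0.25 for SH3 against control and 1.61 ± 0.25 for SH3 against SH1. In the other 7 libraries, without the high control 1, the values were -1.01, 0.66 and 1.67. The less abundant row, NM_001178102, had 0.35, 0.8 and 0.76 FPKM in SH1, 1.64, 0.79 and 1.3 FPKM in SH3 and 0.8, 0.31 and 0.83 FPKM in control, and overlapped in every comparison. NM_002317 made up 87.5% to 97.3% of the LOX level in each library.

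TNC encodes tenascin-C, a matricellular glycoprotein that weakens cell attachment to fibronectin. Its 4 listed rows (gene 3371) are predicted transcripts that share most of their sequence, so the division of reads among them is uncertain. Their sum is firmer than any 1 of them. No sum here holds transcripts outside the selection, so a sum need not be the gene's level. The sum was 15.87, 14.19 and 14.11 FPKM in SH1 and 10.37, 8.73 and 11.88 FPKM in SH3, against 4.17, 5.42 and 3.55 FPKM in control. The 3 groups were apart, with SH1 highest and control lowest. Sums averaged 14.7 ± 0.994 FPKM in SH1, 10.3 ± 1.58 FPKM in SH3 and 4.38 ± 0.953 FPKM in control (SD, n = 3 each), which is 336% of control in SH1 and 236% in SH3.

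Among the TNC rows, XM_005251972 was the main one. It had 9.72, 10.08 and 12.15 FPKM in SH1 and 8.11, 6.36 and 8.1 FPKM in SH3, against 2.87, 3.56 and 1.3 FPKM in control, with no overlap between any groups. Its log2 fold change was 1.92 ± 0.39 for SH1 against control, 1.49 ± 0.38 for SH3 against control and -0.43 ± 0.38 for SH3 against SH1. XM_005251974 had 4.34, 3.55 and 1.96 FPKM in SH1, 1.53, 1.69 and 3.23 FPKM in SH3 and 1.08, 1.86 and 1.49 FPKM in control, and SH3 overlapped with control. The remaining rows, XM_011518629 and XM_006717098, were at 0 in 4 and 6 libraries and reached at most 1.5 FPKM. XM_005251972 made up 72.8% ± 12.5 of the TNC level in SH1 and 73.1% ± 5.02 in SH3, against 57.0% ± 17.8 in control (SD, n = 3 each), ranges that overlapped.

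**Figure D2:**
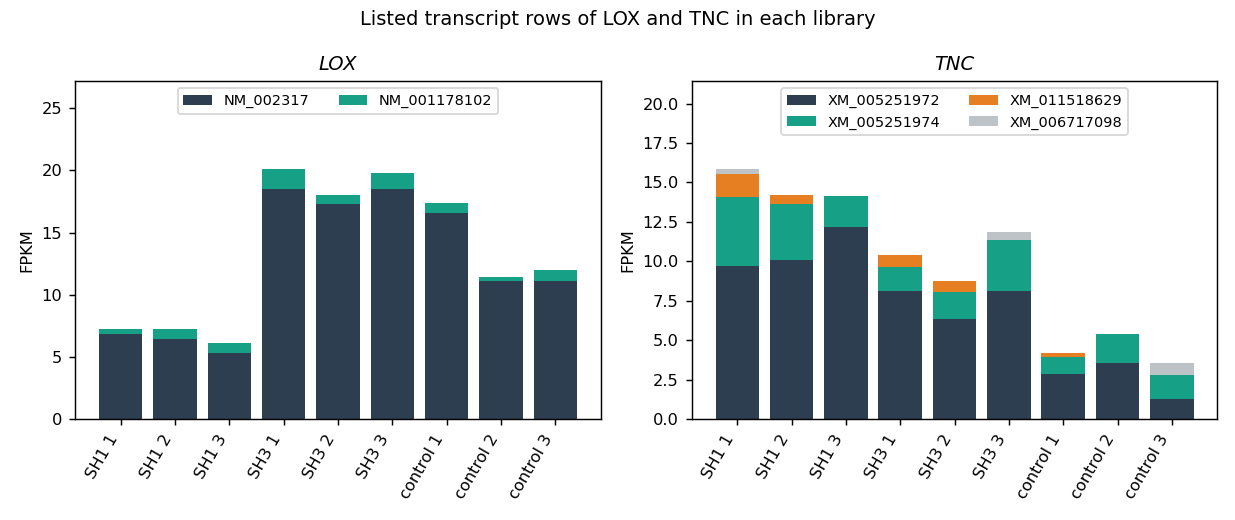
Listed rows of LOX and TNC stacked in FPKM for each of the 9 libraries, with SH1 and SH3 left of control. NM_002317 makes up 87.5% to 97.3% of LOX in each library, and XM_005251972 is the largest TNC row in every library but control 3, where it makes up 36.6% and XM_005251974 42.0%.

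Ordered by mean summed level, the genes in SH1 ran TNC, ADAMTS1, VCAN, LOX, FBN1 and TGFBI. In control the order was ADAMTS1, VCAN, LOX, FBN1, TGFBI and TNC. The lowest ADAMTS1 value in SH1 (8.94 FPKM) lay just above the highest VCAN value there (8.89 FPKM). In control LOX at 13.6 ± 3.31 FPKM and FBN1 at 12.1 ± 0.833 FPKM overlapped (SD, n = 3 each). In SH3 the order was ADAMTS1, LOX, TNC, VCAN, FBN1 and TGFBI, where TNC at 10.3 ± 1.58 FPKM, VCAN at 9.34 ± 1.17 FPKM and FBN1 at 8.77 ± 1.44 FPKM overlapped, as did ADAMTS1 and LOX. The sum of the listed TNC rows was thus first in SH1 and last in control. These orders rank listed rows only, which were selected to differ between control 1 and SH1 1. They need not be the orders of the genes' total levels. In bulk RNA, fewer cells that make a transcript and less of it per cell cannot be told apart.

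**Figure D3:**
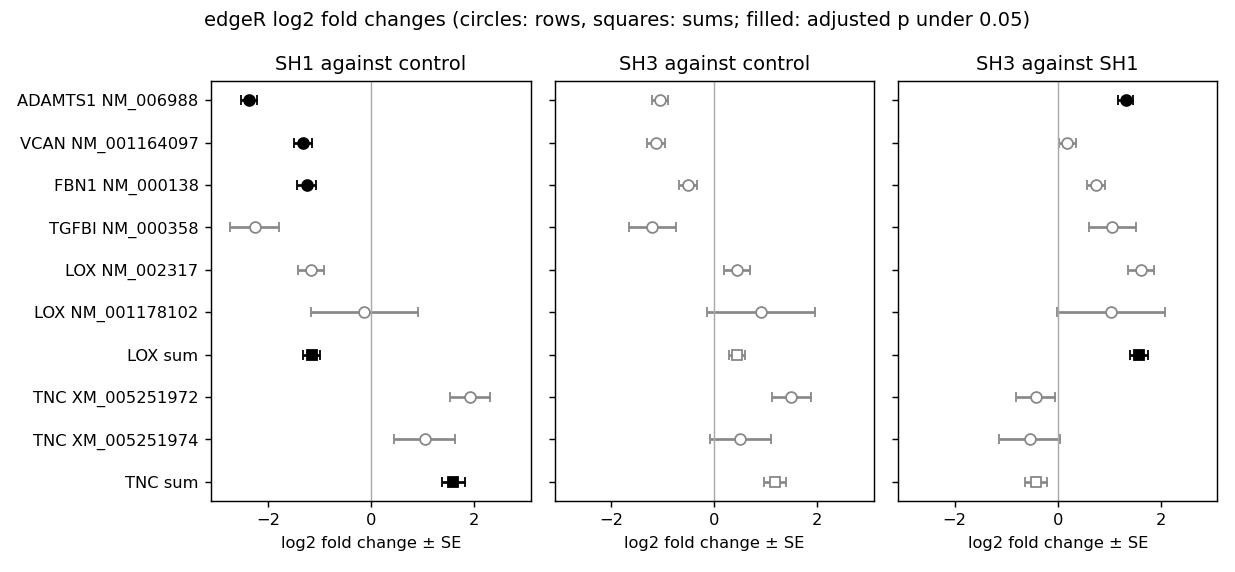
Log2 fold change with its SE for the rows and for the sums of LOX and TNC in the edgeR fits, in the 3 comparisons; filled symbols have an adjusted p under 0.05. The rows XM_011518629 and XM_006717098 are left out because they are at 0 in 4 and 6 of the 9 libraries.

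All 10 rows passed the filter on low counts. In the edgeR fit of rows, 3 of the 10 had an adjusted p under 0.05 for SH1 against control, ADAMTS1, VCAN and FBN1, all lower in SH1; with DESeq2 these were ADAMTS1 and TGFBI. Over all 17495 rows tested the edgeR share was 0.137%, with 0.0629% lower, and 7 of the 10 rows did not overlap between the groups, against 16.1% of all rows. For SH3 against control 0 of the 10 passed in edgeR, DESeq2 or limma, against 0.0286% of all rows in edgeR, 5 had an unadjusted p under 0.05, where 5.85% of all rows did, and 6 did not overlap, against 12.3%. For SH3 against SH1, 1 passed, ADAMTS1 with the higher level in SH3, against 0.0972% of all rows (0.0629% higher), and 5 did not overlap, against 14.5%. Since these comparisons chose the genes, nothing is read from the shares. The FBN1 and VCAN calls ended in the other 7 libraries, while that of ADAMTS1 for SH1 against control did not, and the FBN1 call also ended when library sizes were taken from the tested rows. Leaving out any 1 of the 9 libraries ended the FBN1 call, and any but SH3 2 the VCAN call. The ADAMTS1 call for SH3 against SH1 held without control 1, control 3 or SH3 2 and ended without any of the other libraries, and in the other 7 libraries.

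The edgeR fit was repeated on estimated counts summed per gene, where the fitted SE was smaller and more genes passed. For ADAMTS1, VCAN, FBN1 and TGFBI the sum is the 1 listed row, so these are the same counts fitted among other features and no further evidence. All 6 sums passed for SH1 against control, 1 higher (TNC) and 5 lower, where 2.14% of 6398 sums passed (1.06% higher, 1.08% lower) and 20.2% did not overlap. The log2 fold changes were -2.42 ± 0.11 for ADAMTS1, -1.37 ± 0.13 for VCAN, -1.31 ± 0.16 for FBN1, -2.32 ± 0.22 for TGFBI, -1.15 ± 0.16 for LOX and 1.60 ± 0.22 for TNC. In the other 7 libraries 3 of the 6 passed, ADAMTS1, VCAN and TGFBI, and the LOX call ended without any 1 of the SH1 libraries. In a fit of SH1 and control alone 4 passed, without LOX and TNC. For SH3 against control 2 of the 6 sums passed, ADAMTS1 at -1.09 ± 0.11 and VCAN at -1.17 ± 0.13, where 0.406% of all sums passed (0.109% lower), and 0 passed in the other 7 libraries. The VCAN call ended without control 3 or without SH3 1, and with the replicate number as a block. None of the 6 sums overlapped between SH3 and control, where 17.3% of all sums did not overlap. TGFBI was at -1.24 ± 0.21, FBN1 at -0.55 ± 0.16, LOX at 0.44 ± 0.16 and TNC at 1.18 ± 0.21. Between SH3 and SH1 the sums of ADAMTS1 (1.33 ± 0.11) and LOX (1.58 ± 0.17) passed, where 1.36% of all sums did (0.781% higher), and both passed in the other 7 libraries too. Of the 6 sums 5 did not overlap between SH3 and SH1, against 22.4% of all sums. FBN1 was at 0.75 ± 0.16, TGFBI at 1.07 ± 0.21, VCAN at 0.21 ± 0.13 and TNC at -0.42 ± 0.21. SH1 and SH3 are each set against the same 3 control libraries, so their comparisons are not independent.

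Across the 9 libraries, the rows of ADAMTS1, TGFBI and FBN1 followed each other most closely. On log2(FPKM + 1), Pearson's r was 0.98 between ADAMTS1 and TGFBI, 0.97 between FBN1 and TGFBI and 0.96 between ADAMTS1 and FBN1. Versican followed ADAMTS1 with r = 0.87, LOX followed it with 0.67 and versican with 0.29, and the main TNC row ran opposite to ADAMTS1 with -0.88. The points share the 3 groups and the libraries, so these values are a description and carry no p. By the annotation in the deposited table, all 6 genes belong to extracellular matrix organization, a term held by 0.968% of the listed genes, and 4 of them (ADAMTS1, FBN1, TGFBI and TNC) to the basement membrane, held by 0.528%.

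The rows most like ADAMTS1 across libraries were POFUT1 (r = 0.985), IGFBP3 (0.975), RGS4 (0.971), CHSY3 (0.961) and MATN2 (0.955), of 4929 rows with a mean of at least 1 FPKM. POFUT1, a protein O-fucosyltransferase, had 19.3 ± 0.321 FPKM in SH1, 31.0 ± 0.519 FPKM in SH3 and 38.8 ± 1.45 FPKM in control (SD, n = 3 each). IGFBP3, which binds insulin-like growth factors, had 2.56 ± 0.24 FPKM in SH1, 15.1 ± 0.257 FPKM in SH3 and 28.0 ± 2.69 FPKM in control. These rows share with ADAMTS1 the order SH1, SH3, control. The rows most like VCAN were FST (0.978), RGS4 (0.945), RAB34 (0.937), COL8A1 (0.928) and CPA4 (0.927). FST, which encodes the activin-binding protein follistatin, had 6.96 ± 0.88 FPKM in SH1, 7.74 ± 0.32 FPKM in SH3 and 16.7 ± 2.45 FPKM in control. The listed RAB34 row was at 0 in all 6 knockdown libraries. With a pseudocount of 0.1 FPKM, 4 of the 5 rows were the same for each gene.

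**Figure D4:**
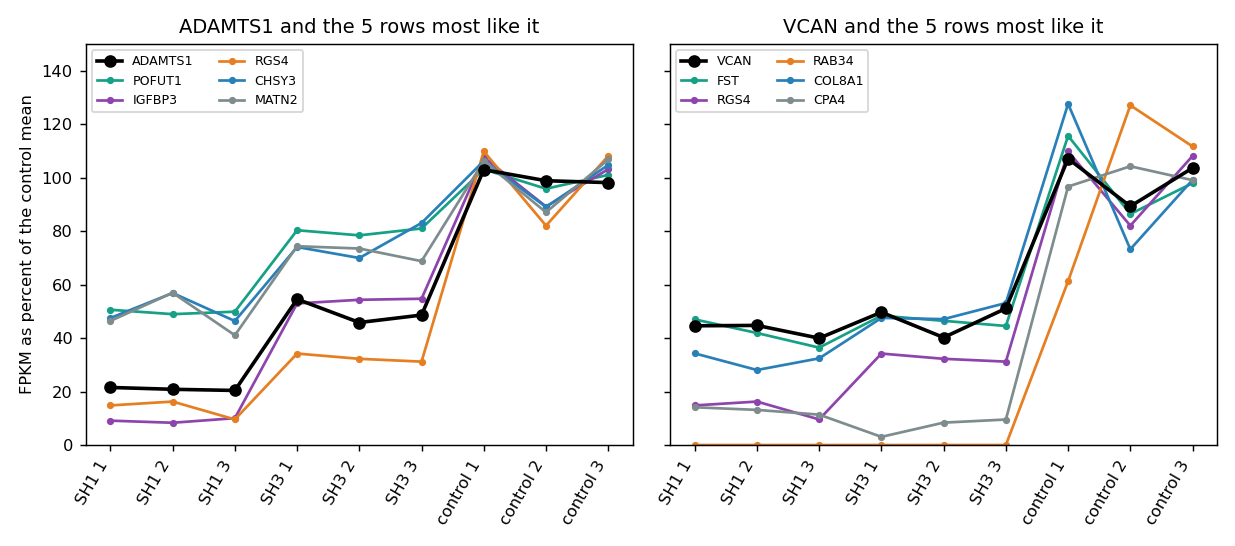
FPKM as percent of the control mean in each library for ADAMTS1 (left) and VCAN (right), in black, with the 5 rows of highest Pearson correlation to each in colour. ADAMTS1 and the rows like it step up between SH1 and SH3, whereas VCAN stays at 43.1% in SH1 and 47.0% in SH3; points are joined only to follow a gene, since libraries of a group have no order.

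VCAN, LOX and TNC had 3 arrangements of the group means: lower in both knockdown groups, on opposite sides of control, and higher in both. For SH3 against control the LOX and TNC sums did not pass in edgeR (adjusted p = 0.511 and 0.0862). The sequences before their start sites are shown, 1 for each arrangement. They are the 250 bases before the RefSeq start on the gene's own strand (GRCh38.p14), at chr5:83471494-83471743 on the plus strand for VCAN, chr5:122078260-122078509 on the minus strand for the first of 3 LOX starts, and chr9:115118158-115118407 on the minus strand for TNC. RefSeq sequences were matched for 5 of the 6 genes, and ADAMTS1 is named only. Capitals mark matches on either strand to the GC box GGGCGG, the SMAD motif CAGAC and the CCAAT box.
VCAN promoter: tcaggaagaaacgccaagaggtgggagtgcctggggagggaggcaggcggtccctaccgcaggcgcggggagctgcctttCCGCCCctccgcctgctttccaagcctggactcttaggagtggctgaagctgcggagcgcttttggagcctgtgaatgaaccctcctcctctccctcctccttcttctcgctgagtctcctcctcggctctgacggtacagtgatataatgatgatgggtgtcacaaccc
LOX promoter: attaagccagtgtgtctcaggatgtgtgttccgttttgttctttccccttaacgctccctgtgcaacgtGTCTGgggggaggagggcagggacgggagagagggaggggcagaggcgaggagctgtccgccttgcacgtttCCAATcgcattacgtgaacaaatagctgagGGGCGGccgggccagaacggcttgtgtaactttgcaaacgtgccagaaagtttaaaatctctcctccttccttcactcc
TNC promoter: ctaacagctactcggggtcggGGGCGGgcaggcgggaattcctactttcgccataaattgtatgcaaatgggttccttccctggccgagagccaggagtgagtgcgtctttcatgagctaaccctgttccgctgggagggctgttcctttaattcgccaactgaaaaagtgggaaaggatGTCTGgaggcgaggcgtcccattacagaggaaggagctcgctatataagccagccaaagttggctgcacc

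VCAN, LOX and TNC each hold 1 GC box match, LOX and TNC each 1 SMAD match and LOX 1 CCAAT match. Of 35116 RefSeq promoters of this length, 42.6% hold a GC box, 38.0% the SMAD motif and 32.0% a CCAAT box, so such matches are common. TGFBI held 3 GC box matches and FBN1 1 match to the TEAD motif CATTCC, which 11.9% of promoters hold. The exact TATA box letters TATAAA (10.7% of promoters) and the AP-1 motif TGANTCA (6.57%) were not found in these windows on either strand. The same holds for the E-box CACGTG (6.34%) and the CRE letters TGACGT (7.10%). Variants of a motif were not searched, so the letters TATATAA near the end of the TNC window were not counted. The SMAD and GC letters do not overlap each other. A match is a description of the letters, and no factor's binding was measured.

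Other genes of the matrix were taken from 8 lists of 324 genes, of which 119 genes with 319 rows were listed. Of 249 rows tested, 0 passed for SH1 against control in the edgeR quasi-likelihood test, and 25 had an unadjusted p under 0.05, where 7.81% of all rows did; limma called 0 and DESeq2 11. For SH3 against control 0 passed in edgeR and 19 had an unadjusted p under 0.05, where 5.85% of all rows did. Here limma called 0 and DESeq2 9. The limma and DESeq2 shares of all rows are not given, so nothing is read from their counts. Between SH3 and SH1, 1 row passed, ESM1, higher in SH3, where 0.0972% of all rows passed, and 29 had an unadjusted p under 0.05 (11.6%, against 6.25% of all rows). The median log2 fold change of the 249 rows was -0.0 for SH1 against control, -0.05 for SH3 against control and -0.14 for SH3 against SH1, where the medians of all rows were 0.04, 0.03 and 0.0.

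ESM1 encodes endocan, a secreted dermatan sulfate proteoglycan. It had 11.51, 11.77 and 9.1 FPKM in SH1 and 48.27, 42.08 and 40.39 FPKM in SH3, against 29.04, 23.27 and 19.18 FPKM in control. Like LOX, its SH1 libraries all lay below and its SH3 libraries all above the control libraries. The row's log2 fold change for SH3 against SH1 was 2.08 ± 0.27 (edgeR, adjusted p = 0.0293), and it did not pass in the other 7 libraries or in 10 further alternatives, among them the fits without control 2 or without any 1 knockdown library. On sums it was 2.10 ± 0.19 (adjusted p = 0.00196; 3.88e-23 to 0.0181 over the alternatives).

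On sums per gene, 113 listed matrix genes were tested beside the 6, and 9 passed for SH1 against control (7.96%, against 2.14% of all sums), 2 higher and 7 lower. Besides ESM1 these are named because they passed on sums, a choice made after their values were seen. COL8A1, a short-chain collagen, averaged 4.93 ± 0.498 FPKM in SH1, 7.69 ± 0.524 FPKM in SH3 and 15.6 ± 4.25 FPKM in control (SD, n = 3 each), with a log2 fold change of -1.81 ± 0.19 for SH1 against control (edgeR on sums, adjusted p = 0.00269; 1.15e-15 to 0.0361 over the alternatives). It was the 1 gene of the 9 that passed in the other 7 libraries. ESM1 and FRAS1 passed with each control or SH3 library left out, ESM1 not without SH1 1 and FRAS1 not without SH1 1 or SH1 2, and the remaining 6 passed in few or none of these fits. FRAS1, of the basement membrane, averaged 0.453 ± 0.0153 FPKM in SH1, 1.03 ± 0.0656 FPKM in SH3 and 1.11 ± 0.0529 FPKM in control (-1.45 ± 0.20; adjusted p = 0.01 in edgeR). ESM1 (-1.30 ± 0.18), the matrilin gene MATN2 (-1.12 ± 0.19), COL13A1 (-1.45 ± 0.28), ABI3BP (-3.88 ± 0.74) and ADAM23 (-0.85 ± 0.17) were lower in SH1. ABI3BP, a sum of 9 listed rows, was near 0 in SH1, at 0.0967 ± 0.0451 FPKM against 1.38 ± 0.5 FPKM in control. COL6A2, a chain of collagen VI, was higher, with 76.4 ± 13.3 FPKM in SH1, 42.2 ± 1.87 FPKM in SH3 and 35.8 ± 4.97 FPKM in control (0.92 ± 0.18; adjusted p = 0.0484 in edgeR), as was the protease gene ADAM8 (2.24 ± 0.41). For SH3 against control 0 of the 113 sums passed in edgeR, and 12 had an unadjusted p under 0.05, where 8.39% of all sums did. DESeq2 called 8, without a share of all sums to set beside it.

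For SH3 against SH1, 5 of the 113 sums passed (4.42%, against 1.36% of all sums): ESM1 and FRAS1 (1.27 ± 0.20) higher in SH3, and ADAM8 (-2.39 ± 0.41), the cathepsin gene CTSS (-1.90 ± 0.26) and the collagen receptor gene DDR1 (-1.66 ± 0.31) lower. In the other 7 libraries 1 of the 5 passed, ESM1, which also passed with any 1 library left out. DDR1 is the sum of 29 listed rows, whose reads may be split among near-identical copies. CTSS averaged 4.59 ± 0.571 FPKM in SH1, 1.16 ± 0.182 FPKM in SH3 and 1.69 ± 0.19 FPKM in control. FRAS1 had similar levels in SH3 and control, and ADAM8 as well, at 0.53 ± 0.0917 FPKM in SH3 and 0.563 ± 0.095 FPKM in control.

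By list, the sums for SH1 against control gave 1 higher and 2 lower of 11 collagens, 3 lower of 21 matrix glycoproteins, 1 lower of 13 proteoglycan and hyaluronan genes, and 1 higher and 1 lower of 16 ADAM and ADAMTS genes. Of 11 other proteases and inhibitors, 10 cross-linking and collagen-processing genes, 12 receptors and 20 TGF-beta pathway genes, 0 passed in edgeR, with 3, 2, 3 and 1 at an unadjusted p under 0.05, where 11.5% of all sums were. Among these, the protease gene HTRA1 had 2.52 ± 0.25 FPKM in SH1, 5.15 ± 0.214 FPKM in SH3 and 5.05 ± 0.707 FPKM in control. The most abundant listed row of FN1, the fibronectin gene, was at 0 in all SH3 libraries. It had 7.94, 5.35 and 20.93 FPKM in SH1 and 0.55, 11.05 and 17.06 FPKM in control, and is 1 of 4 listed rows of that gene. The FN1 sum had a log2 fold change of -5.856 for SH3 against control and -5.745 for SH3 against SH1. Neither passed in the main edgeR fit of sums, and limma called the sum for SH3 against SH1. How reads were divided among the FN1 rows was not tested. COLGALT1, a collagen galactosyltransferase, was at 21.4 ± 9.81 FPKM in SH1, 30.1 ± 13.1 FPKM in SH3 and 32.2 ± 12.6 FPKM in control, and overlapped throughout.

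**Figure D5:**
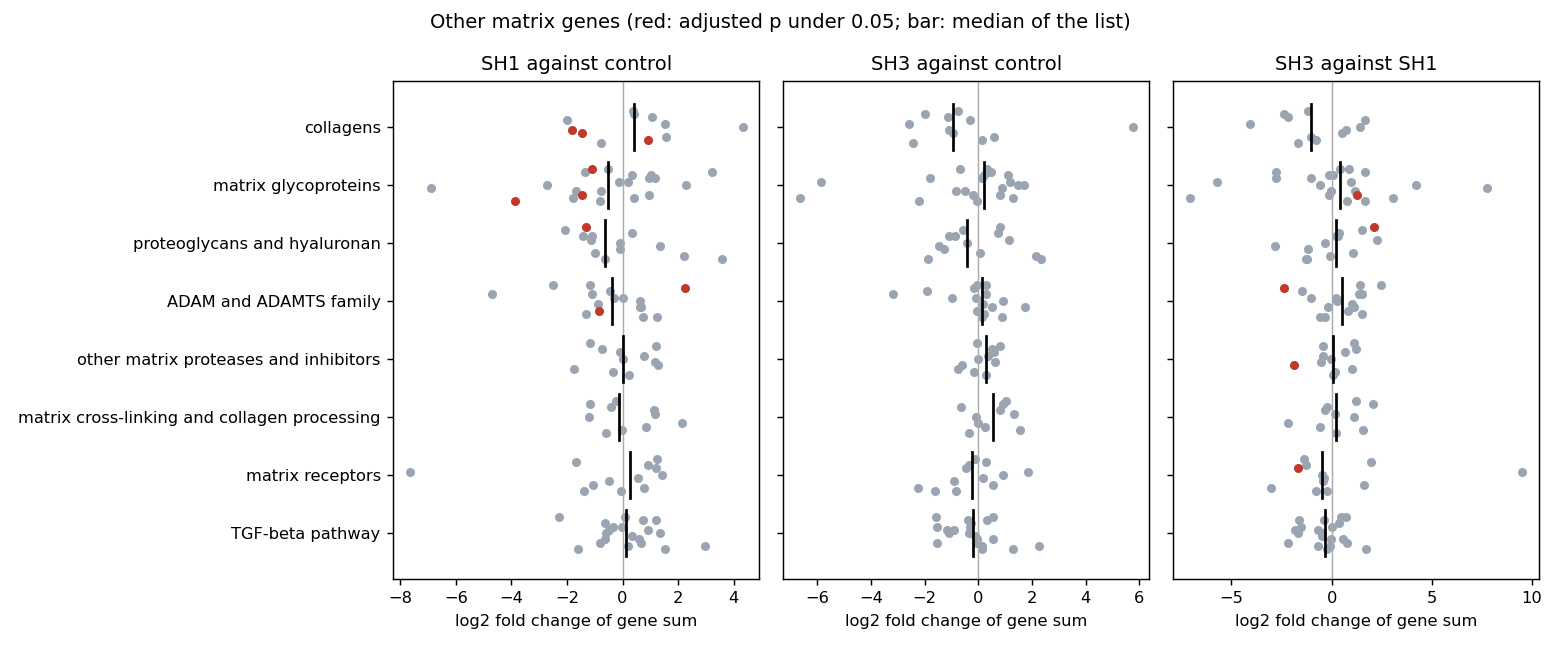
Log2 fold change of each listed matrix gene other than the 6, on counts summed per gene, by list and comparison; red points have an adjusted p under 0.05 and the bar is the median of the list. Points lie on both sides of 0 in every list; values beyond about 4 come from genes at or near 0 in a group and depend on the prior count of the fit.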

How the data were processed

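RNA of 9 libraries (3 SH1, 3 SH3, 3 control) was quantified by the authors, and the samples were mapped to groups by their labels. Per the file headers, the deposited table gives per transcript an estimated count, FPKM, TPM and a normalized read count (a signal divided by 1 factor per library). The submitters' processing notes name the mouse build mm10, whereas the genes are human; the aligner and counter are not given in the sources used here. Estimated counts, rounded, were tested with edgeR 4.0.16 (R 4.3.3), quasi-likelihood, TMM, filterByExpr (minimum count 10), 1 fit of all 9 libraries, with Benjamini-Hochberg adjustment over 17495 rows or 6398 sums per gene and a threshold of 0.05. The SE is the size of the log2 fold change over the square root of F. Library sizes and normalization factors in edgeR and DESeq2 came from the selected rows alone. Fold changes and adjusted p thus presume that these rows hold no common shift between groups, which was not tested. FPKM describes levels, and TPM the share of a library covered. DESeq2 1.42.0, limma 3.58.1 (log2 of FPKM plus 1), other library sizes (chosen after seeing the data), no filter, the 2 groups alone, the replicate number as a block, leaving out each library and the other 7 libraries were alternatives. The fit was tried on simulated data with changes planted in rows of low spread. At the data's own spread only the fold changes were checked. The number called was checked only with a low spread set for every row, so the calls above were not tested by it. Genes named are the 6, in each list those past the threshold and some of up to 4 with the highest level, and the 5 rows most like ADAMTS1 and VCAN. The members and lists were chosen with earlier results of these data known.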

Additional observations from a re-analysis of the deposited data

Results flagged for a closer look

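Several matrix genes differed between the knockdown groups SH3 and SH1, by the edgeR test of that difference. ADAMTS1 was higher in SH3 than in SH1 by a log2 fold change of 1.32 on its row. The row of LOX differed by 1.61 and was singled out because every SH3 library lay above and every SH1 library below the control libraries; on the row the difference did not pass the threshold, and on the LOX sum it did, at 1.58. The row of ESM1 differed by 2.08 with the same arrangement around control. Sums of the listed rows differed for FRAS1 (1.27), higher in SH3, and for ADAM8 (-2.39), CTSS (-1.90) and DDR1 (-1.66), lower in SH3. ADAMTS1 and LOX were chosen with this difference known, and what sets SH1 and SH3 apart was not tested.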

How the results depend on the processing

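No called value of the 6 genes changed sign in any alternative. Of the log2 fold changes of their rows under an alternative, 485 moved by less than the spread between replicates and 22 by more, and signs changed in LOX NM_001178102, TNC XM_011518629 and TNC XM_006717098 alone, none of them called. For SH1 against control 3 rows of the 6 genes passed. With limma, with the 2 groups alone, with the replicate block and in the other 7 libraries 1 passed, each time ADAMTS1, with DESeq2 2 (ADAMTS1 and TGFBI, without VCAN and FBN1), and 1 to 2 when a library was left out. For SH3 against SH1, 1 row passed, 0 with DESeq2, limma, the 2 groups alone, the replicate block or the other 7 libraries, and 0 to 2 when a library was left out (2 without control 1, where LOX passed too). Of the other matrix rows, DESeq2 called 11, 9 and 16 for SH1 against control, SH3 against control and SH3 against SH1, where edgeR called 0, 0 and 1. DESeq2 size factors gave 1 (COL6A2), 0 and 0, and 0 were called for SH3 against SH1 with the 2 groups alone, the replicate block or the other 7 libraries. Leaving out a library gave 0 to 1 for SH3 against control (FN1 without control 1) and 0 to 2 for SH3 against SH1. Of the 6 sums, 6 passed for SH1 against control but 4 with the 2 groups alone (LOX and TNC lost) and 3 in the other 7 libraries. For SH3 against control 2 passed, 5 with DESeq2, 4 with limma, 1 with the replicate block, 0 with the 2 groups alone or the other 7 libraries, and 1 to 3 when a library was left out (1 without control 3 or SH3 1, where VCAN was lost). For SH3 against SH1 2 passed, and 4 with DESeq2. Of the other matrix sums, 9 passed for SH1 against control, 22 with DESeq2, 3 with the replicate block, 1 with the 2 groups alone or the other 7 libraries and 1 to 6 without a library (1 without SH1 1). For SH3 against control 0 passed, 8 with DESeq2 and 0 to 1 without a library. Between SH3 and SH1 5 passed, 18 with DESeq2, 9 with limma, 2 with the 2 groups alone, 1 with the replicate block or the other 7 libraries and 1 to 4 without a library. For DESeq2 and limma, the shares called of all rows and of all sums are not given here. Nothing about matrix genes is therefore read from their counts. The cause of these differences between settings was not tested. Deviations of same-numbered libraries from their group means had r from -0.276 to 0.032. The rows were selected to differ between control 1 and SH1 1, which itself lowers r between control and SH1. Pairing of those groups therefore cannot be judged from it. For SH3 with control or SH1, r was -0.004 to 0.032.

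The rows were selected on control 1 and SH1 1, so differences that rest on them are a description of that choice too. The 3 libraries of a group limit the precision, low rows such as the lesser LOX and TNC rows carry few counts, and predicted transcripts share reads.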
